A study of Mus musculus with 16 samples.

Results

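The RNAs described here are 7 long noncoding RNAs that are made and mostly kept in the nucleus: Malat1, Neat1, Miat, Kcnq1ot1, Meg3, Rian and Mirg. They were taken by gene symbol, which gave 7 of the 47729 genes with values. All 7 are annotated as noncoding, and their levels in a ribosome immunoprecipitate (IP) were read as a check on untranslated RNA. Levels alone cannot tell RNA bound to ribosomes from other RNA in the IP. The levels were compared between IP and input and between damaged and undamaged cochleae. Kcnq1ot1 and Mirg were higher in IP than in input in all 8 pools of tissue, Malat1 in 7 of 8, and Neat1 and Miat in 3 of 8 each. After damage, Neat1 was higher in IP in the test used here, by 1.91-fold, a call that was lost under several other settings. Meg3 and Rian were listed at 0 in nearly every library.

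The libraries came from mouse cochleae at P4, the sensory duct without the spiral ganglion, lateral wall or Reissner's membrane. Control mice carried GLAST CreERT/+ and Rpl22 HA/+. DTR mice carried these alleles and also Lgr5 DTR/+, which puts the diphtheria toxin receptor on Lgr5+ supporting cells so that diphtheria toxin (DT) ablates them. The study's methods give DT and tamoxifen at P1 to both genotypes, whereas the sample labels give no treatment for the controls and DTR treatment for the others. Tamoxifen activates Cre in GLAST+ cells, mainly of the greater epithelial ridge (GER) and around the inner hair cells, and Cre switches Rpl22 to an HA-tagged form. Antibody to HA then pulls down ribosomes of these cells. Each pool combined cochleae of several mice, and its homogenate was divided between an input library and an IP library. Each genotype had 4 pools, which gave 16 libraries with between 28089836 and 41966310 reads counted on genes. Levels are in CPM, the reads of a gene scaled to a common total of reads per library, in which 3 reads correspond to between 0.0715 and 0.107 CPM, a limit that covers counting error only.

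Malat1 lies in nuclear speckles, bodies that hold splicing factors, and is among the most abundant noncoding RNAs of mammalian cells. Neat1 is the scaffold of paraspeckles, and Miat (also called Gomafu) forms nuclear spots and binds splicing regulators. Kcnq1ot1 is an unspliced, paternally expressed RNA that silences its imprinted neighbours in cis. Meg3, Rian and Mirg are made from the maternal chromosome along the imprinted Dlk1-Dio3 domain, where Rian hosts small nucleolar RNAs and Mirg hosts microRNAs.

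Positions are from GENCODE M21 on GRCm38, the build of the deposited data. Malat1 lies at chr19:5795690-5802672 on the minus strand and Neat1 at chr19:5824708-5845478 on the same strand, with 22 kb between them. Miat lies at chr5:112213228-112229395 on the minus strand. Kcnq1ot1 is a single exon of 93092 bases at chr7:143203458-143296549 on the minus strand, within the Kcnq1 gene on the other strand. Meg3 (chr12:109541001-109571726), Rian (chr12:109603940-109661716) and Mirg (chr12:109729764-109749460) follow each other on the plus strand. Exonic lengths were 6983 bases for Malat1, 20771 for Neat1, 9293 for Miat, 18089 for Meg3, 18234 for Rian and 7292 for Mirg. Other annotated genes cover 30.4% of the exonic bases of Miat and 7.7% of those of Malat1, and the strand setting of the counting was not given, so reads shared with those genes, or with unspliced Kcnq1 in the case of Kcnq1ot1, cannot be told apart.

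The library kit starts cDNA from an oligo-dT primer, which pairs with a poly(A) tail or with a run of A inside an RNA. The stretches of 30 bases shown here hold the longest run of A within Malat1, the first 15 bases of that within Kcnq1ot1, and the annotated 3′ ends of Neat1, Miat and Mirg. The longest run of A in each stretch is in capitals, 5′ to 3′, as read from the GENCODE M21 transcripts.
Kcnq1ot1, bases 69550 to 69579 of 93092: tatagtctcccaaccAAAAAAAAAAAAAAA
Malat1, bases 6665 to 6694 of 6983: cctagctttAAAAAAAAAAAAgcaaaagac
Neat1, bases 20742 to 20771 of 20771: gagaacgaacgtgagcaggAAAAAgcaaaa
Miat, bases 9134 to 9163 of 9163: atttcaatattAAAAccgacacacactgga
Mirg, bases 3793 to 3822 of 3822: gaataatAAAcatatgtcatataatgtaaa
The run in Kcnq1ot1 is 41 bases long in all and lies 23487 bases before the annotated end, and Kcnq1ot1 holds 10 runs of at least 10 A. Among 16933 tested genes with a transcript sequence, 18.5% hold a run of 10 or more A and 6 genes, 0.0354%, hold one of 41 or more. The run of 12 in Malat1 is followed by 298 bases and is the A-rich tract that folds with upstream U-rich motifs to protect the processed 3′ end. Neat1 ends in a shorter A-rich tract of the same kind. The longest runs anywhere in Neat1, Miat and Mirg were 7, 4 and 5 bases, against 16 in Meg3 and 15 in Rian. Of the RNAs that were higher in IP, Kcnq1ot1 and Malat1 thus hold a run of 10 or more A and Mirg does not. The part of such runs in the levels was not tested.

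Levels of different genes are compared per kilobase of exon. In control input, Malat1 was at 129 ± 43.6 CPM per kb (SD, n = 4), Miat at 0.787 ± 0.389, Neat1 at 0.559 ± 0.26, Kcnq1ot1 at 0.403 ± 0.155 and Mirg at 0.0759 ± 0.0352. The ranges of Miat, Neat1 and Kcnq1ot1 overlapped, whereas Malat1 stood above them and Mirg below them without overlap. In control IP the order was Malat1 (176 ± 81.1), Kcnq1ot1 (1.22 ± 0.606), Miat (0.811 ± 0.379), Neat1 (0.362 ± 0.161) and Mirg (0.192 ± 0.0363). In DTR input it was Malat1 (148 ± 39.4), Miat (0.811 ± 0.215), Neat1 (0.693 ± 0.24), Kcnq1ot1 (0.459 ± 0.0752) and Mirg (0.102 ± 0.0317). In DTR IP it was Malat1 (330 ± 145), Kcnq1ot1 (1.69 ± 0.722), Miat (0.926 ± 0.525), Neat1 (0.751 ± 0.257) and Mirg (0.341 ± 0.0992). Kcnq1ot1 stood after Miat and Neat1 in both input groups and before them in both IP groups. It lay below both without overlap in DTR input, and its range overlapped theirs in the other groups. Miat and Neat1 overlapped in each group, as did Neat1 and Mirg in the IP groups and Miat and Mirg in DTR IP.

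**Figure D1:**
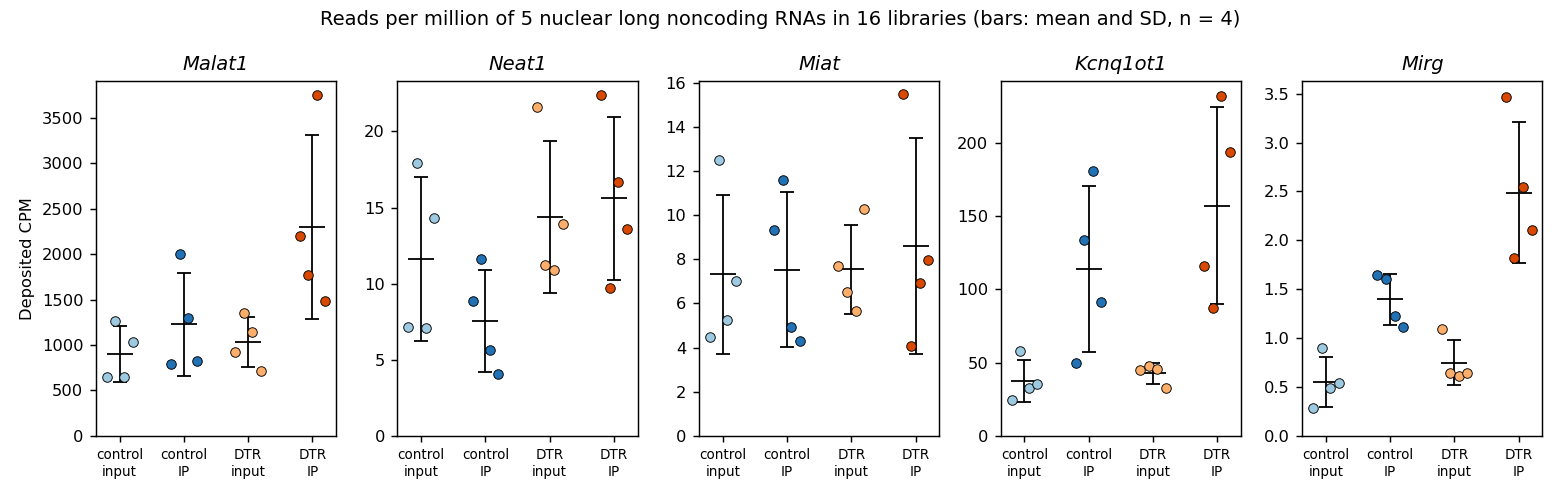
Deposited CPM (vertical axis, a linear scale of its own for each gene) of Malat1, Neat1, Miat, Kcnq1ot1 and Mirg in the 16 libraries, with the mean and SD of each group of 4. All 4 DTR IP libraries of Malat1 lie above its DTR input libraries, those of Mirg lie above every other library of Mirg, and the groups of Miat overlap throughout.

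Kcnq1ot1, the imprinted silencer, was higher in IP than in input in both genotypes. In control pools 1 to 4, its input levels were 24.4, 58.0, 32.4 and 35.3 CPM and its IP levels 49.6, 134, 181 and 91.1 CPM. In DTR pools 1 to 4, its input levels were 44.9, 47.7, 45.9 and 32.3 CPM and its IP levels 116, 87.1, 232 and 194 CPM. The IP library was the higher one in 8 of 8 pools, with a ratio of IP to input between 1.83 and 6 and a median of 2.58. The control groups overlapped, since the lowest IP library lay below the highest input library, and the DTR groups did not. On the scale of log2(CPM + 0.5) after quantile normalization, limma gave a log2 fold change (LFC) of 1.49 ± 0.35 (SE) in control (adjusted p = 0.0023) and 1.79 ± 0.35 in DTR (adjusted p = 0.00055), with 1.99% and 1.08% of the 16994 tested genes having a higher LFC. A correction for a trend with exonic length in each library, added after seeing the data because the study applied one to the IP libraries before its clustering, brought these LFCs to 1.20 (limma, adjusted p = 0.0078) and 1.17 (adjusted p = 0.0097). Only 3 tested genes have 90 kb or more of exon, so the correction for Kcnq1ot1 rests on few genes of its length.

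Mirg, the microRNA host RNA, was also higher in IP in every pool, at a level of only 12 to 108 reads a library. In control pools 1 to 4, its input levels were 0.286, 0.901, 0.484 and 0.543 CPM and its IP levels 1.64, 1.60, 1.23 and 1.11 CPM. In DTR pools 1 to 4, its input levels were 1.09, 0.641, 0.613 and 0.640 CPM and its IP levels 3.47, 1.82, 2.55 and 2.10 CPM. The groups did not overlap in either genotype, and the ratio of IP to input ran from 1.78 to 5.75 with a median of 3. The LFC was 0.90 ± 0.19 in control (limma, adjusted p = 0.00087) and 1.26 ± 0.19 in DTR (adjusted p = 3.8e-05). The pseudocount lowers the LFC of so weakly counted a gene, and edgeR on the whole reads recovered from the CPM gave 1.40 in control and 1.72 in DTR. None of the 15 microRNA genes listed within Mirg had more than 5 reads in a library.

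Malat1, the speckle RNA, was higher in IP in every DTR pool and in 3 of 4 control pools. In control pools 1 to 4, its input levels were 652, 1269, 650 and 1031 CPM and its IP levels 785, 2003, 1297 and 825 CPM. In DTR pools 1 to 4, its input levels were 926, 1347, 1139 and 708 CPM and its IP levels 2198, 1771, 3751 and 1485 CPM. The control groups overlapped, and control pool 4 had a ratio of IP to input of 0.801. The DTR groups did not overlap, with ratios between 1.31 and 3.29. The LFC was 0.48 ± 0.32 in control (limma, adjusted p = 0.25, 95% interval −0.19 to 1.14) and 1.04 ± 0.32 in DTR (adjusted p = 0.014). Without DTR IP replicate 3, the library with the highest Malat1 level, the DTR value was 0.86 (limma, adjusted p = 0.056), and with no filter on low values it had an adjusted p of 0.052.

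Neat1 and Miat, the paraspeckle scaffold and the splicing-associated RNA, did not pass the test between IP and input in either genotype. In control pools 1 to 4, Neat1 stood at 7.17, 17.9, 7.08 and 14.3 CPM in input and at 8.85, 11.6, 5.61 and 4.09 CPM in IP. In DTR pools 1 to 4, it stood at 21.6, 11.2, 10.9 and 13.9 CPM in input and at 22.4, 9.72, 16.7 and 13.6 CPM in IP. Neat1 had the lower level in IP in 3 of 4 control pools, and its groups overlapped in both genotypes. Its LFC was −0.51 ± 0.31 in control (limma, adjusted p = 0.21, 95% interval −1.15 to 0.14) and 0.09 ± 0.31 in DTR (adjusted p = 0.85, interval −0.55 to 0.73), the latter −0.06 after the length correction. Miat stood at 4.50, 12.5, 5.25 and 7.01 CPM in control input pools 1 to 4 and at 9.33, 11.6, 4.94 and 4.28 CPM in the matching IP libraries. In DTR pools 1 to 4, it stood at 7.71, 6.50, 5.67 and 10.3 CPM in input and at 15.5, 4.06, 6.92 and 7.96 CPM in IP. The ratio of IP to input of Miat was near 2 in pool 1 of each genotype (2.07 and 2.01), and in 5 of the other 6 pools it was below 1. Its LFC was 0.11 ± 0.33 in control (interval −0.58 to 0.81) and 0.11 ± 0.33 in DTR (interval −0.59 to 0.80). With the pool as a block, which pairs IP with input of the same homogenate, limma gave adjusted p = 0.055 for Malat1 and 0.06 for Neat1 in control, with unchanged LFCs of opposite sign.

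**Figure D2:**
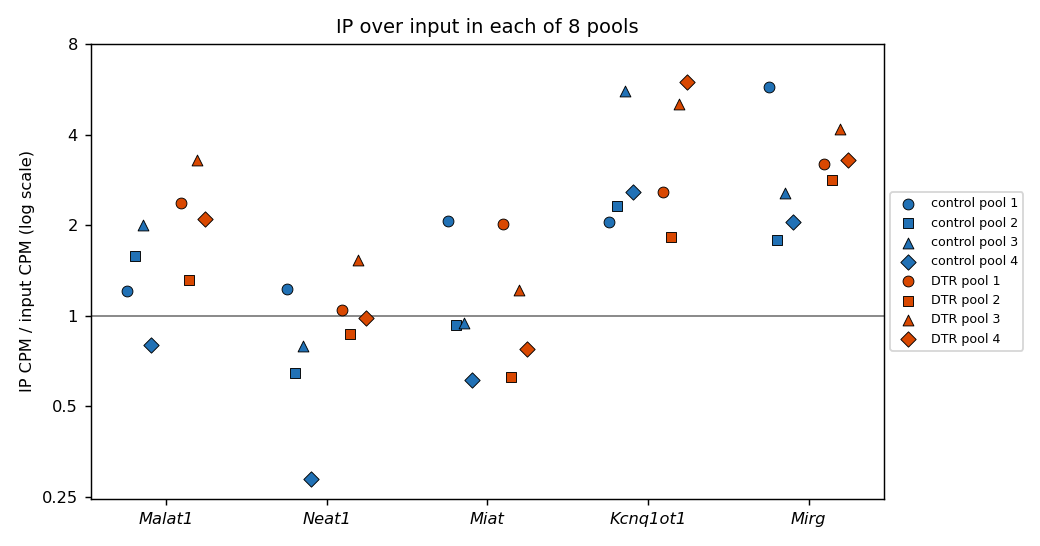
Ratio of IP CPM to input CPM (vertical axis, log scale) in each of the 8 pools, with control pools in blue, DTR pools in orange and 1 symbol per pool number. All 8 pools of Kcnq1ot1 and Mirg lie above 1, Malat1 has 1 pool below 1 (0.801), and Neat1 and Miat lie on both sides of 1.

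Of the 5 RNAs that passed the filter, 2 were called higher in control IP against control input and 3 in DTR IP against DTR input, and none was called lower. Among all 16994 tested genes, 19.3% were called higher and 20.7% lower in control, and 18.6% higher and 20.5% lower in DTR. Groups without overlap and higher in IP were seen for 1 of 5 in control, where 17.2% of tested genes did so and 21.5% were lower without overlap, and for 3 of 5 in DTR, where 16.7% did. Both Kcnq1ot1 and Mirg had a ratio above 1 in all 8 pools, as had 19.4% of tested genes. Over both genotypes together, 3 of 5 were called higher in IP (limma), at an LFC of 1.64 ± 0.25 for Kcnq1ot1, 1.08 ± 0.13 for Mirg and 0.76 ± 0.22 for Malat1, where 25.8% of tested genes were called higher. The 5 LFCs had a median of 0.76 there, against −0.02 over all tested genes.

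Other long noncoding RNAs of the annotation stood on the same side. Of 1120 tested long noncoding genes outside the 7, 33% were called higher and 7.59% lower in IP over both genotypes, with a median LFC of 0.18 and quartiles of −0.07 and 0.48. Of 14476 protein-coding genes, 25.8% were called higher and 30.7% lower, with a median of −0.04. Weakly counted genes could pass the filter on low values through their level in IP alone. How many of the long noncoding genes did so was not counted, so their share is no independent support. The upper quartile of the long noncoding genes lay below the LFC of each of the 3 RNAs called. Those 3 were picked by their call in this same comparison, so their place above the quartile is no independent support. Neat1 (LFC −0.21 ± 0.22) and Miat (0.11 ± 0.23) lay below that quartile. Of 12 tested RNAs on a list of other nuclear long noncoding RNAs, 2 were called higher and 1 lower, with a median LFC of 0.10. These shares were no higher than the 25.8% and 28% of all tested genes, so this list did not stand out in IP. Those higher were Nespas (LFC 0.80 ± 0.16, adjusted p = 0.00046), an imprinted antisense RNA, and Snhg14 (LFC 1.36 ± 0.40, adjusted p = 0.0073), the long imprinted host RNA of the Prader-Willi region. Nespas passed the filter on low values only through its level in IP, at 0.251 ± 0.107 CPM in control input and 0.733 ± 0.152 CPM in control IP, so its call is no independent support. Tug1, which is found in both nucleus and cytoplasm, was lower (LFC −0.68 ± 0.10, adjusted p = 1.7e-05). The imprinted antisense RNA Airn was at 8.55 ± 1.76 CPM in control input, with an LFC of 0.31 ± 0.20 in control IP that missed the threshold (adjusted p = 0.25).

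Transcripts made in mitochondria, which are translated on ribosomes without Rpl22, were counted as well. Of 13 mitochondrial mRNAs, 7 were called lower and 4 higher in IP over both genotypes, beside 28% and 25.8% of all tested genes. The largest fall was that of mt-Co1, a subunit of cytochrome c oxidase, from 1359 ± 250 to 364 ± 88.2 CPM in control and from 1348 ± 608 to 183 ± 86.6 CPM in DTR, at an LFC of −2.37 ± 0.22 (limma, adjusted p = 6.6e-08). The 4 called higher were mt-Atp6, mt-Nd4l, mt-Co2 and mt-Co3, whose SD in control input was above their mean. The 13 thus did not move in a single direction. None of the 5 nuclear RNAs was called lower in IP, and whether both kinds of RNA enter the IP alike was not tested.

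Markers of several other cochlear cell types were lower in IP. Over both genotypes, 6 of 6 macrophage markers, 5 of 5 of endothelium and blood, 8 of 10 hair cell markers and 5 of 7 Schwann cell markers were called lower. Among all tested genes, 28% were called lower and 25.8% higher in that comparison. Of 12 neuron markers, 6 were called lower and 6 were not called, and of 6 mesenchyme and bone markers, 3 were lower and 2 higher. Macrophage markers summed to between 92.0 and 98.6 CPM in control input and to between 14.1 and 21.6 CPM in control IP. Among 11 supporting cell and GER markers, 2 were called higher and 5 lower. Lfng, a modifier of Notch, was 1 of those higher, at 74.5 ± 10.7 CPM in control input and 279 ± 26.9 CPM in control IP. In control IP against control input, 4 of the 11 were called higher and 4 lower, with a median LFC of −0.20. Among all tested genes, 19.3% were called higher and 20.7% lower in control, and 18.6% higher and 20.5% lower in DTR. In DTR IP against DTR input, 1 of the 11 was called higher and 4 lower. Those lower included Otoa (LFC −1.88 ± 0.15, limma, adjusted p = 2.1e-08) and Slc1a3, the GLAST gene itself (−0.27 ± 0.09, adjusted p = 0.03). The supporting cell and GER markers thus did not move in a single direction between input and IP. None of the marker genes was at 0 in a whole group. Fewer cells of a type and less RNA per cell cannot be told apart in such bulk samples, and the part of cell makeup in the levels of the 7 RNAs was not tested.

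**Figure D3:**
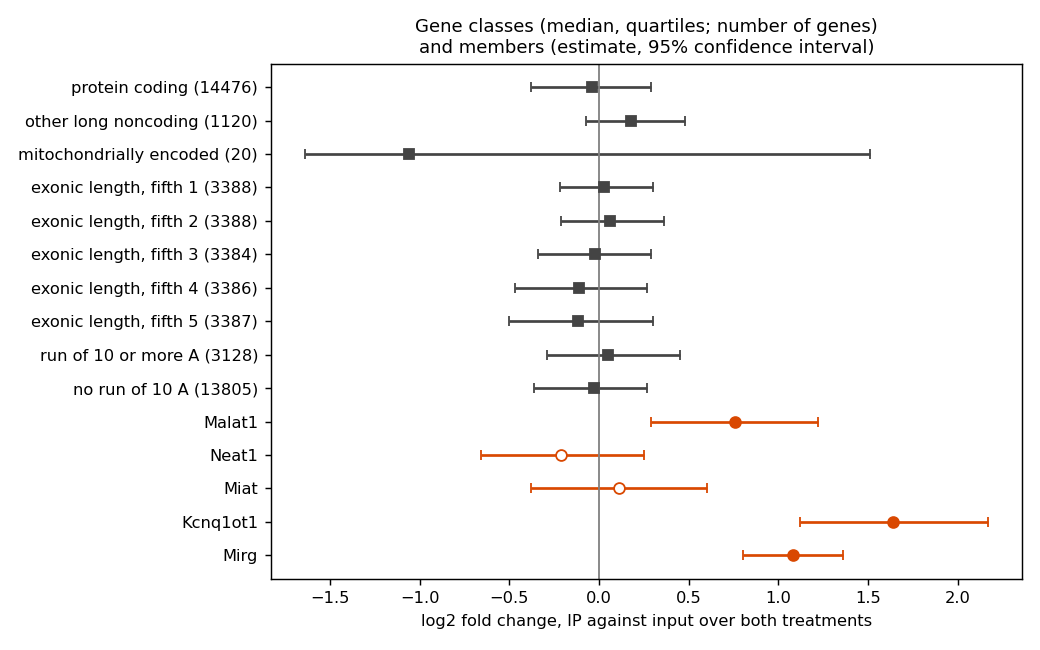
LFC of IP against input over both genotypes (horizontal axis), as the median and quartiles of classes of tested genes (squares, number of genes in brackets) and as the estimate with its 95% confidence interval for 5 RNAs (circles, filled where the adjusted p was under 0.05). Kcnq1ot1, Mirg and Malat1 lie to the right of the upper quartile of other long noncoding genes (0.48), and Neat1 and Miat lie to its left with intervals that include 0.

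Exonic length and runs of A moved with the IP to input difference across the tested genes. The 3388 genes with the shortest exonic sequence (up to 1.99 kb) had a median LFC of 0.03 over both genotypes and the 3387 with the longest (7.14 kb or more) −0.12, a class that reaches from lengths near that of Malat1 to well beyond that of Kcnq1ot1 and in which 26.4% were called higher and 39.4% lower. Genes with a run of 10 or more A had a median of 0.05 and the others −0.03. Among long noncoding genes, those medians were 0.24 for 197 genes with such a run and 0.16 for 923 without. The part of length or of runs of A in the LFCs of Kcnq1ot1, Malat1 and Mirg was not tested by these medians.

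The question of the second comparison was whether the RNAs changed after ablation of Lgr5+ cells. Neat1 rose in IP after damage, with 4.09 to 11.6 CPM in control and 9.72 to 22.4 CPM in DTR. The ranges overlapped in that DTR replicate 2 lay below control replicate 2. The LFC was 0.93 ± 0.31 (limma, adjusted p = 0.045), with 2.53% of tested genes having a higher one. Neat1 was thus 1 of 5 called, where 8.44% of all tested genes were called higher and 7.3% lower. The call was kept with the replicate block (limma, adjusted p = 0.028) and in DESeq2 (adjusted p = 0.017), and lost in edgeR (adjusted p = 0.062), without the filter on low values (limma, adjusted p = 0.11) and with the length correction (LFC 0.71, adjusted p = 0.11). Leaving out 1 library at a time kept it in 7 of 16 fits. It was lost without control IP replicates 1, 3 or 4, DTR input replicates 2, 3 or 4, or DTR IP replicates 1, 3 or 4, at adjusted p between 0.051 and 0.13.

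Malat1 moved from 785 to 2003 CPM in control IP to 1485 to 3751 CPM in DTR IP, with overlap. Its LFC of 0.79 ± 0.32 missed the threshold (limma, adjusted p = 0.1) and passed it with the replicate number as a block (limma, adjusted p = 0.025) and without control IP replicate 2, the highest control library (LFC 1.09, adjusted p = 0.019). Mirg was the RNA whose IP groups did not overlap, with 1.11 to 1.64 CPM in control and 1.82 to 3.47 CPM in DTR, and 10.5% of tested genes were higher without overlap and 6.54% lower. Its LFC was 0.48 ± 0.19 (limma, adjusted p = 0.092). Kcnq1ot1 had an LFC of 0.52 ± 0.35 (adjusted p = 0.36, interval −0.22 to 1.26), which the length correction brought to 0.04, and Miat one of 0.04 ± 0.33 (interval −0.66 to 0.74).

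In input, none of the 5 was called in limma, edgeR or DESeq2 (0 of 5 at an unadjusted p under 0.05 in limma), where 7.17% of tested genes were called higher and 5.21% lower. The LFCs were 0.34 ± 0.31 for Neat1, 0.23 ± 0.32 for Malat1, 0.22 ± 0.35 for Kcnq1ot1, 0.12 ± 0.19 for Mirg and 0.05 ± 0.33 for Miat, and the control and DTR libraries overlapped for all 5. The 95% intervals were wide, from −0.52 to 0.96 for Kcnq1ot1 and from −0.30 to 0.98 for Neat1. The change in IP minus the change in input was 0.60 ± 0.43 for Neat1, 0.56 ± 0.45 for Malat1, 0.36 ± 0.27 for Mirg, 0.30 ± 0.50 for Kcnq1ot1 and −0.01 ± 0.47 for Miat. None of these differences passed in limma (0 of 5, and 0 of 5 at an unadjusted p under 0.05), edgeR or DESeq2, and 0.0118% of tested genes were called lower and 0% higher. A response particular to the tagged cells was therefore not detectable for any of the 5.

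**Figure D4:**
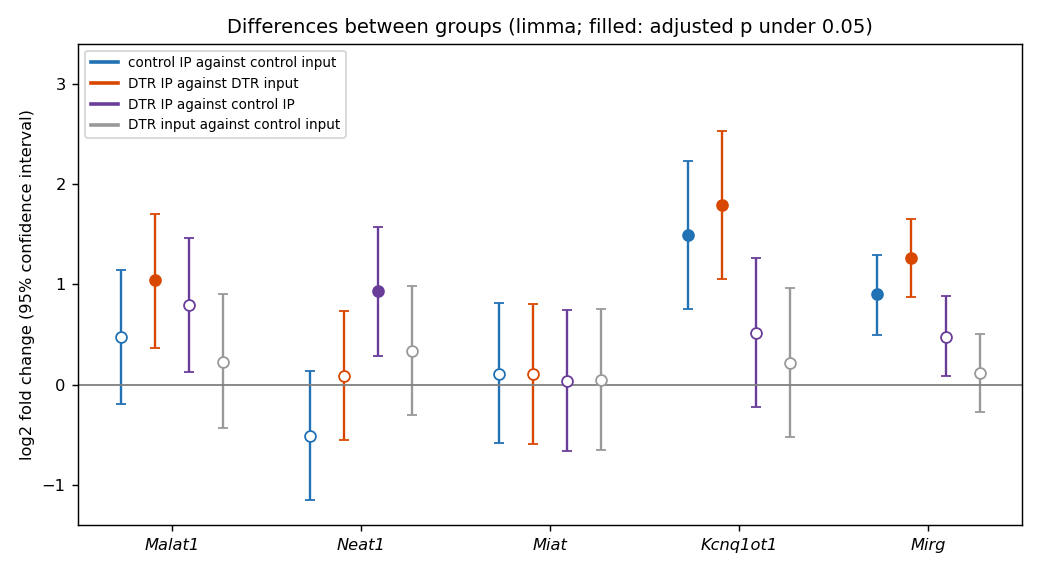
LFC with its 95% confidence interval (vertical axis) of 5 RNAs in 4 comparisons, filled where the adjusted p was under 0.05 in limma. Kcnq1ot1 and Mirg are filled for IP against input in both genotypes, Malat1 for DTR alone, Neat1 for DTR IP against control IP, and no RNA for DTR input against control input.

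Transcripts of proteins that share the bodies of Malat1 and Neat1 were counted from fixed lists. Of 15 nuclear speckle proteins, 8 rose and 0 fell in IP after damage (15 of 15 tested), where 8.44% of all tested genes rose and 7.3% fell, with a median LFC of 0.57 against −0.00 over all tested genes. They included Son, a speckle scaffold (LFC 0.78 ± 0.13, adjusted p = 0.00036), Srsf11, a splicing factor (0.66 ± 0.14, adjusted p = 0.0026), and Srrm2, the other scaffold (0.54 ± 0.13, adjusted p = 0.0079). In input, 5 of 15 were higher and 0 lower, with a median of 0.27, where 7.17% of tested genes were higher and 5.21% lower. Between IP and input over both genotypes, 8 of 15 were higher and 0 lower, where 25.8% of tested genes were higher and 28% lower, among them Srrm2 (LFC 1.40 ± 0.09, adjusted p = 5.8e-10), Son (1.16 ± 0.09, adjusted p = 8.3e-09) and Rbm25 (1.21 ± 0.10, adjusted p = 1.7e-08).

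Of 15 proteins of paraspeckles, which Neat1 scaffolds, 4 rose and 0 fell in IP after damage (again beside 8.44% and 7.3% of all tested genes), with a median LFC of 0.17. They were Hnrnph3 (0.72 ± 0.12, adjusted p = 0.00044), Ewsr1 (0.55 ± 0.13, adjusted p = 0.0057), Tardbp (0.39 ± 0.12, adjusted p = 0.026) and Sfpq (0.51 ± 0.16, adjusted p = 0.032), all RNA-binding proteins. In input, 3 were higher and 1, Taf15, was lower (LFC −0.65 ± 0.20, adjusted p = 0.04). Between IP and input over both genotypes, 8 were lower and 1 higher, beside 28% and 25.8% of all tested genes, with the lowest adjusted p for Hnrnpk (LFC −0.61 ± 0.09, adjusted p = 2.4e-05). Of the regulators that bind Miat, Qk and Celf3 were tested and neither was called in any comparison, and Sf1 was listed at 0 in every library.

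After damage, 8.44% of all tested genes rose and 7.3% fell in IP, and 7.17% rose and 5.21% fell in input. Near those shares, 1 of the 12 other nuclear long noncoding RNAs tested rose in each fraction and 0 fell. This was Pvt1, an RNA encoded beside Myc, at 1.3 ± 0.45 CPM in control input and 6.07 ± 0.746 CPM in DTR input (LFC 1.78 ± 0.27, adjusted p = 0.00015). In IP it stood at 1.55 ± 0.965 CPM in control and 3.53 ± 1.32 CPM in DTR (LFC 0.91 ± 0.27, adjusted p = 0.029).

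The genes around the RNAs were also counted. Of 8 tested genes of the Kcnq1 domain, 2 were higher and 1 lower in IP relative to input over both genotypes, shares no higher than the 25.8% and 28% of all tested genes. The gene lower was Kcnq1 itself, a potassium channel, from 13.9 ± 1.78 to 7.91 ± 1.91 CPM in control (LFC over both genotypes −0.64 ± 0.13, adjusted p = 0.00041), while Kcnq1ot1 on the other strand was higher. In IP after damage, 1 of the 8 rose and 1 fell, where 8.44% of all tested genes rose and 7.3% fell. Nap1l4 fell, at 178 ± 28.2 against 251 ± 37 CPM (LFC −0.49 ± 0.12, adjusted p = 0.0083). Cdkn1c, a cell cycle inhibitor silenced by Kcnq1ot1 on the paternal chromosome, rose, at 569 ± 68.4 against 365 ± 33.8 CPM (LFC 0.72 ± 0.10, adjusted p = 6.9e-05). In input the LFC of Cdkn1c was 0.40 ± 0.10 (adjusted p = 0.015). Of the 6 genes beside Malat1 and Neat1, 1 was higher and 2 lower in IP over both genotypes, beside 25.8% and 28% of all tested genes. After damage, 1 rose and 1 fell in IP, beside 8.44% and 7.3% of all tested genes. These were Dpf2 (0.37 ± 0.11, adjusted p = 0.026) and Cdc42ep2 (−0.53 ± 0.17, adjusted p = 0.035). Of 10 chromatin and RNA-decay factors, 3 were higher and 5 lower in IP over both genotypes, beside the same 25.8% and 28%. After damage, 1 rose in IP, the exosome subunit Exosc10 (0.59 ± 0.13, adjusted p = 0.0034), near the 8.44% of all tested genes that rose.

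Marker levels also moved with damage. Among all tested genes, 8.44% were called higher and 7.3% lower in DTR IP against control IP. In DTR IP against control IP, 7 of 11 supporting cell and GER markers were lower, with sums of 6888 to 7651 CPM in control and 3707 to 5292 CPM in DTR. Of 6 macrophage markers, 4 were higher, with sums of 14.1 to 21.6 CPM in control IP and 32.8 to 49.0 CPM in DTR IP. In the same comparison, 3 of 6 mesenchyme and bone markers were higher and 3 of 7 Schwann cell markers lower. Of 10 hair cell markers, 3 were higher and 1, Atoh1, was lower (LFC −0.87 ± 0.24, adjusted p = 0.02). The part of these differences in the levels of Neat1 and Malat1 was not tested.

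Meg3 and Rian gave no usable level. Meg3 had 1 read in DTR IP replicate 1 and 0 in the other 15 libraries. Rian had 1 read each in DTR input replicate 1 and DTR IP replicates 2 and 4 and 0 in the other 13 libraries. No fold change is given for either, since both groups of every comparison were at or under 3 reads a library. Along the domain, Dlk1 and Rtl1, which are coding genes, and the noncoding Gm26906, Gm26945 and Gm37899 were at 0 in all 16 libraries, while B830012L14Rik, with 246 reads, and Mirg, with 674 reads, were counted in all 16. Of 66 microRNA genes listed between Dlk1 and Mirg, 58 were at 0 and the others reached at most 5 reads in a library.

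A 0 in these data need not be an absence of RNA. Rian, Dlk1 and Rtl1 each have a second gene identifier listed without values, and so do Men1, Atg2a, Cdk2ap2 and Sf1, genes that most cells use and that were also at 0 in all 16 libraries. Of 157 coding genes whose symbol has such a second identifier, 44 (28%) were at 0 throughout, against 13.7% of the 21463 other coding genes. Meg3, Gm26906, Gm26945 and Gm37899 have no second identifier listed. Of the 6 tested genes of the wider Dlk1-Dio3 list, Begain was higher in IP over both genotypes (LFC 0.48 ± 0.12, adjusted p = 0.0021) and Wars lower (−0.38 ± 0.08, adjusted p = 0.00069).

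**Figure D5:**
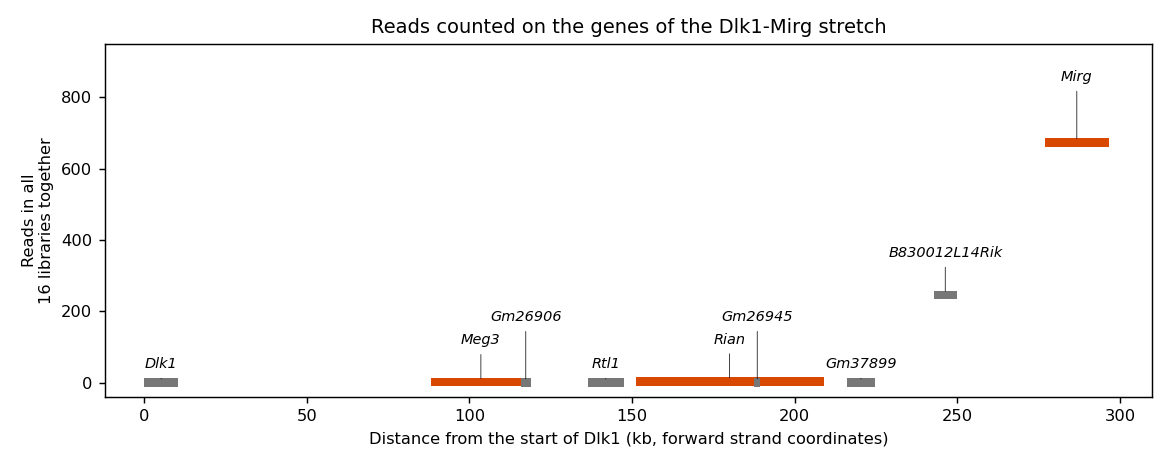
Reads of all 16 libraries together (vertical axis) on each gene between Dlk1 and Mirg, drawn at its distance in kb from the start of Dlk1, with Meg3, Rian and Mirg in orange. Genes within the first 224.8 kb hold 0 to 3 reads each, B830012L14Rik 246 and Mirg 674.

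Replicates of a group differed more in these RNAs than in most genes. The residual SD over the 16 libraries, on the log2 scale, was 0.60 for Kcnq1ot1, 0.54 for Miat, 0.53 for Malat1 and 0.50 for Neat1, against a median of 0.24 over all tested genes and 0.23 for Mirg. Between 2.89% and 5.32% of tested genes had a larger SD than each of the former 4. None of the 47 tested genes at or above the level of Malat1, itself included, had a larger one. Control pool 2 had the highest Malat1 level of its group in both input and IP, and likewise for Neat1 and Miat, and DTR pool 1 had the highest Neat1 level of its group in both.

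The genes whose log2 levels ran most alike over the 16 libraries are given by Pearson's r, as a description in which libraries of 1 pool and of 1 group are not independent. Those of Malat1 were BC005561, Specc1 and Nfat5 (r of 0.938, 0.923 and 0.919). Those of Neat1 were Paxbp1, Zc3h7a and Ogt (0.891, 0.838 and 0.835). Those of Miat were Rbmx, Tle2 and Lrrc45 (0.847, 0.814 and 0.811). Those of Kcnq1ot1 were the noncoding 5430400D12Rik and the coding Enah and S100pbp (0.948, 0.940 and 0.936). Those of Mirg were Adck5, Ankrd12 and Zc3h13 (0.967, 0.966 and 0.964). All but 5430400D12Rik are annotated as protein coding.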

How the data were processed

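RNA was measured in 16 libraries of P4 mouse cochleae, 4 per group, prepared with SMART-Seq v4 and sequenced in pairs. The authors deposited a CPM value for every gene in each library, made by alignment to GRCm38 (HISAT2 in the methods, TopHat in the submitters' processing notes), HTSeq counting and scaling to the reads counted on genes. The annotation release and strand setting are not given in the sources used here. All 100% of CPM above 0 were whole multiples of 1 read (tolerance 0.05 read), so reads were recovered. Of 50316 genes listed, 2587 were NA throughout.

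CPM were quantile normalized, as in the study, and 0.5 was added before taking log2. Genes at 0.5 CPM or more in all 4 libraries of at least 1 group were kept (16994). The 4 groups entered 1 limma fit of the 16 libraries (limma 3.58.1 in R 4.3.3) whose prior variance followed mean level, with Benjamini-Hochberg adjustment over all tested genes and a threshold of 0.05. An LFC is thus on the log2(CPM + 0.5) scale and understates the change of low genes. The procedure was tested on simulated data. Alternatives were other scalings, pseudocounts and filters, blocks, edgeR (version 4.0.16) and DESeq2 (version 1.42.0) on recovered reads, a length correction, and fits without 1 library. The block was the pool for IP against input and for the change in IP minus that in input. Between genotypes it was the replicate number. The members and lists were chosen with earlier results of these data known. Genes named beside the members were at most 5 of a list by lowest adjusted p in a comparison, the 3 most similar over the libraries, and genes named for their position or as markers. Airn, Lfng, Otoa, Slc1a3 and the mitochondrial genes called higher were chosen after their values were seen. Men1, Atg2a and Cdk2ap2 are on none of the lists and were picked as examples of genes at 0 with a second identifier.

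IP and input libraries of 1 number come from the same homogenate. Libraries of 1 number from the 2 genotypes also deviated from their group means together, with r between 0.306 and 0.559 for the 4 pairs in IP and between 0.291 and 0.442 in input. Replicates were separate pools of mice.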

Additional observations from a re-analysis of the deposited data

Results flagged for a closer look

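A total of 1 group of 4 libraries among 30 groups examined (CPM in each group and log2 IP over input in each genotype, for 5 RNAs) held a library far from the others: Mirg in DTR input, where replicate 1 stood at 1.093 CPM and the other replicates between 0.613 and 0.641 CPM. Chance flags about 1 in 20 such groups. The same pool also had the highest Mirg level in DTR IP, 3.47 CPM. Without DTR input replicate 1, Mirg stayed above the threshold in DTR IP against DTR input, as in all 16 fits that left out 1 library. The change after damage in IP minus that in input did not pass the limma test for any of the 5 RNAs.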

How the results depend on the processing

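Over the alternatives other than left-out libraries, 374 LFCs of 30 member results were recomputed, of which 362 kept their direction and side of the threshold, 7 changed sign, 4 lost the threshold and 1 gained it. With at least 2 CPM in a group, Mirg was no longer tested, which left 1 member called in control IP against control input and 2 each in DTR IP against DTR input and in IP against input over both genotypes. Without a filter on low values, Malat1 lost its call in DTR IP against DTR input, which left 2. In DTR IP against control IP, the number called went to 0 with no filter on low values, with the length correction and in edgeR, and to 2 with the replicate block. The cause was not tested. The block by pool or replicate number changed no other call of a member. Signs that changed belonged to values near 0: Neat1 in DTR IP against DTR input (−0.06), Miat in DTR IP against control IP (−0.02) and Kcnq1ot1 in the difference of changes (−0.04), each with the length correction, and Miat in the difference of changes, at 0.03 without quantile normalization (also with members and mitochondrial genes left out of the total), 0.08 in edgeR and 0.10 in DESeq2. The length correction and that rescaling were chosen after seeing the data.

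With 1 library left out at a time, members called were 2 in each fit of control IP against control input, 2 to 3 in DTR IP against DTR input, 0 to 2 in DTR IP against control IP, 3 in IP against input over both genotypes, and 0 in DTR input against control input and in the difference of changes. LFCs that changed sign were those of Neat1 in DTR IP against DTR input (−0.07 to 0.29), of Kcnq1ot1 in the difference of changes (−0.05 to 0.57), and of Miat in control IP against control input (−0.07 to 0.37), DTR IP against DTR input (−0.18 to 0.38), DTR IP against control IP (−0.25 to 0.31), DTR input against control input (−0.13 to 0.31), the difference of changes (−0.30 to 0.27) and IP against input over both genotypes (−0.03 to 0.25). Over all genes, the difference of changes gave 2 calls in limma, 40 with the pool as a block, 49 in DESeq2 and 0 in edgeR. No difference could be had for Meg3 and Rian at 1 and 3 reads in all.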
